A study of Homo sapiens with 2 samples.

Results

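Glutathione S-transferases join the tripeptide glutathione to reactive foreign chemicals and to oxidised lipids, which makes them more soluble and ready for export from the cell. The cytosolic enzymes fall into classes named alpha, mu, pi, omega, zeta and theta, the kappa enzyme lies in mitochondria and peroxisomes, and the microsomal enzymes are unrelated membrane proteins that carry out a similar reaction. The alpha class is the main class of the human liver, GSTA1 and GSTA2 are its most abundant hepatic forms, and their protein is released when hepatocytes are damaged. The genes described here are GSTA2 and 9 other members of the family, namely GSTA1 and GSTA4 of the alpha class, GSTM3 and GSTM4 of the mu class, GSTO1 (omega), GSTP1 (pi), GSTK1 (kappa), GSTZ1 (zeta) and the microsomal MGST1. GSTA2 was chosen by its large log2 ratio below 0 on these same arrays, so its values are a description, and the other members were selected on their family. A member was measured through every probe that is not a control and whose RefSeq transcript belongs to it, and 9 of the 10 genes had such probes, 11 probes on 38 spots, out of 23753 genes and unnamed transcripts in all.

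The RNA came from HepG2, an established human hepatocellular carcinoma line that keeps many functions of hepatocytes. Cells were given hawk tea extract (HTE), an ethanol extract of the leaves of Litsea coreana taken up in dimethyl sulfoxide (DMSO), or DMSO alone at 1 per mille, each for 24 h. The labels give the dose of HTE as 200 μg/mL and the text of the study gives a higher one, so the dose behind these values is not settled. One 1-colour (Cy3) Agilent SurePrint G3 array was hybridised for each condition, both on 1 slide and in 1 scan. With 1 array per condition array and treatment cannot be told apart, each value is only as precise as a single array allows, and the conditions are compared without a test or p value. HepG2 is 1 tumour line and not liver tissue. All 10 hepatocyte markers examined, ALB (albumin) and AFP (alpha-fetoprotein) among them, were well above background on both arrays, with summed processed signals of 717938 in DMSO and 682597 in HTE. Markers of other cells were also seen, 2 of 4 for endothelium, 3 of 4 for immune cells, 3 of 5 for stellate cells, 2 of 3 for bile duct and 3 of 3 for intestine. The 4 endothelial markers together had a summed signal of 1046 in DMSO and 347 in HTE. Of them PECAM1 gave 804 and 203 and VWF 182 and 104, while CDH5 and KDR were not well above background. The part of these markers in the values below was not tested. In RNA from whole cultures, fewer cells of a type and less RNA per cell cannot be told apart.

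GSTA2, an alpha class enzyme that conjugates a broad range of electrophiles and also reduces lipid peroxides, had the lowest ratio of all members. Its single probe (A_23_P214300) gave a processed signal of 12691 in DMSO cells and 2418 in HTE cells. The processed signal is the brightness of a spot after the subtraction of background, in arbitrary units. On the scaled log2 signal, which takes the 75th percentile of each array as 0, GSTA2 lay at 1.66 in DMSO and at -0.56 in HTE, above that percentile on the first array and below it on the second. This is a log2 ratio (HTE over DMSO) of -2.22, so that 21.5% of the scaled signal was left, a 4.66-fold lower level. The scanner software's own error for a spot, about 10% of its signal, corresponds to 0.20 on this log2 ratio, and it holds no biological spread. The probe has 1 spot per array, and the median log2 ratio of the spots around it was 0.02.

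Among the 14636 genes with a symbol and a signal well above background in both conditions, GSTA2 stood at place 9 from the largest fall. The genes ranked just before it were HAMP (-2.25), which encodes the iron-regulating hormone hepcidin, and LINC00298 (-2.25), a long non-coding RNA. The genes just after it were TNS4 (-2.20), a tensin of focal adhesions, and FGF9 (-2.20), a fibroblast growth factor. The genes whose pair of scaled log2 signals lay nearest to that of GSTA2 over these 2 arrays were MKI67, FAM111B, DDC, SKA1 and KANK4, at Euclidean distances of 0.32, 0.35, 0.35, 0.45 and 0.47. MKI67 is a marker of dividing cells, SKA1 a protein of the spindle and kinetochore, and DDC the aromatic amino acid decarboxylase. Their log2 ratios ran from -2.27 for MKI67 to -1.61 for SKA1. A likeness over 2 arrays rests on a pair of values, and the brightness of different probes also depends on the probes.

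**Figure D1:**
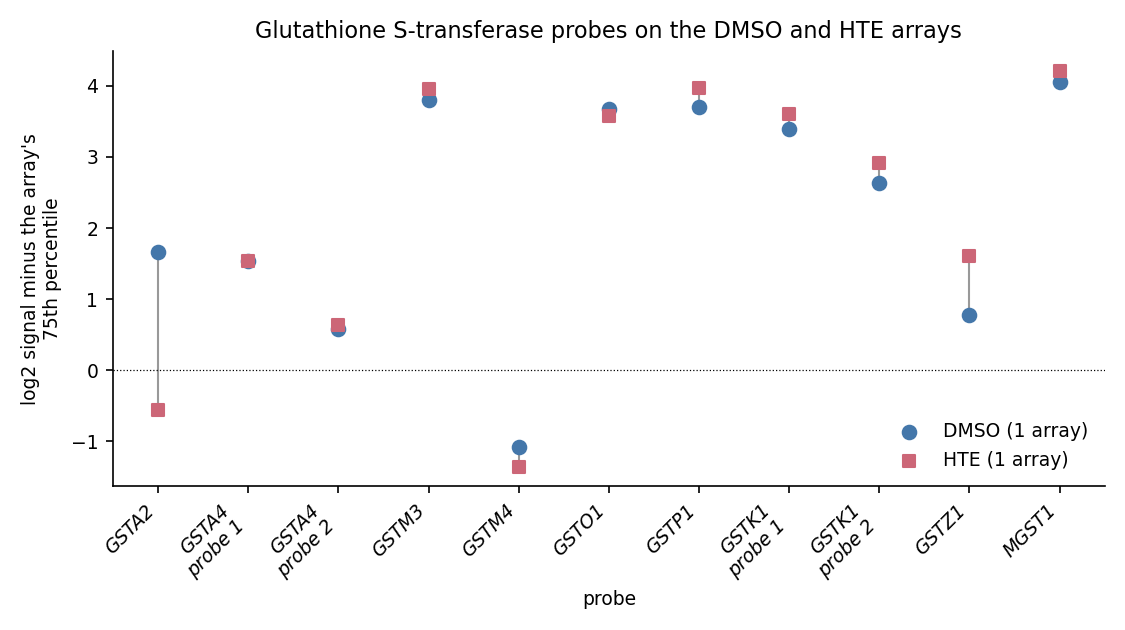
Scaled log2 signal (log2 processed signal minus the array's 75th percentile) of each of the 11 probes of the 9 measured members, with circles for the 1 DMSO array and squares for the 1 HTE array, joined by a line; the dotted line at 0 is the 75th percentile. GSTA2 goes from 1.66 to -0.56 and GSTZ1 from 0.78 to 1.61, while the symbols of the other probes lie close together; heights are to be compared within a probe and not between probes.

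The other alpha class genes lie beside GSTA2 on chromosome 6. In the RefSeq gene table the measured genes and GSTA1 follow each other in the order GSTA7P, GSTA2, GSTA1, GSTA5, GSTA3 and GSTA4, with unmeasured pseudogenes between them. GSTA5, the neighbour beyond GSTA1, gave 14958 in DMSO and 3230 in HTE, a log2 ratio of -2.04. GSTA3, an alpha class enzyme known for a step of steroid hormone synthesis in the adrenal gland and gonads, gave 251 in DMSO and 25.3 in HTE. GSTA3 was well above background in DMSO only, and was therefore at least 2.35-fold lower in HTE, a bound of -1.23 on the log2 ratio.

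GSTA4, which acts on 4-hydroxynonenal and other products of lipid peroxidation, had much the same scaled level on both arrays. Its brighter probe gave 11606 and 10390, a log2 ratio of 0.01. The second probe, printed 10 times with 7 spots used, gave mean signals of 6015 and 5538 and a log2 ratio of 0.05 ± 0.06 (SD over 7 spots, from -0.05 to 0.12). The spots are repeats within 1 array and not biological replicates. The transcribed pseudogene GSTA7P, named here for its place and after its value was seen, gave 1671 and 1198, a log2 ratio of -0.31. The probes of GSTA2, GSTA5 and GSTA3 were thus all lower in HTE by more than 2-fold, and those of GSTA4, at the end of the same cluster, were not.

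GSTA1 could not be analysed here, since no probe was matched to it. The transcripts of GSTA1, GSTA2, GSTA3 and GSTA5 are closely alike, and the probe sequences are not in the files used here. Whether the probes named for GSTA2 and GSTA5 also take up RNA of GSTA1, or of each other, was not tested, and the separate values of these genes are uncertain for that reason. GSTA5 is known as a gene with little transcript in most human tissues.

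**Figure D2:**
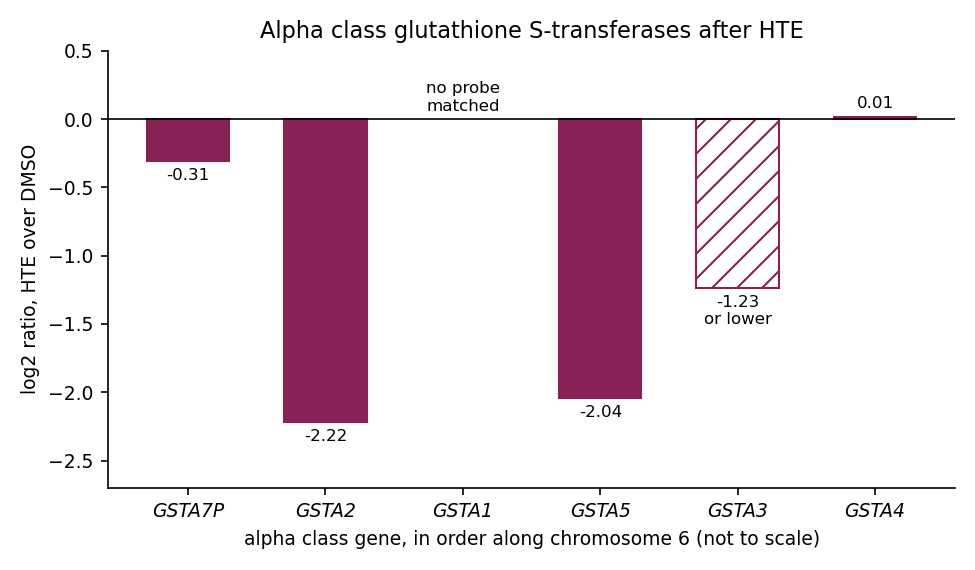
Log2 ratio of HTE over DMSO (1 array each, vertical axis, bars start at 0) of the alpha class genes in their order along chromosome 6, not to scale, with a hatched bar for a bound. GSTA2 (-2.22) and GSTA5 (-2.04) have the longest bars, GSTA3 is at -1.23 or lower, GSTA7P is at -0.31, GSTA4 is at 0.01, and GSTA1 has no matched probe.

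The upstream sequences of GSTA2, GSTA1 and GSTA4 are shown because those of GSTA2 and GSTA1 are nearly alike and that of GSTA4 is not. GSTP1 is added as a member whose sequence has a match to the core of the antioxidant response element. Each is the 250 bases before the RefSeq gene start of GRCh38.p14, written 5′ to 3′ on the gene's strand. Capitals mark matches to 7 short motifs, searched on both strands unless stated, which are the core of the antioxidant response element (TGACNNNGC), the core of the xenobiotic response element (GCGTG), an AP-1 site (TGANTCA, which can lie within the first motif), a C/EBP core (TTGCNNAA), a forkhead core (TGTTTAC), a nuclear receptor core (AGGTCA, which can overlap the first motif) and a TATA box (TATAAA, given strand only). The regions are chr6:52763476-52763725 (minus strand) for GSTA2, chr6:52803817-52804066 (minus strand) for GSTA1, chr6:52995285-52995534 (minus strand) for GSTA4 and chr11:67583562-67583811 (plus strand) for GSTP1.
GSTA2: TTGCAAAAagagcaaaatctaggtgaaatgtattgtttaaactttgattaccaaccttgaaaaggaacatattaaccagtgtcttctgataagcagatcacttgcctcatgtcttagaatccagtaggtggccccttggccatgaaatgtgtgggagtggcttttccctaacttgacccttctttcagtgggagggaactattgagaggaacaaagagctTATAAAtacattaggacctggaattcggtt
GSTA1: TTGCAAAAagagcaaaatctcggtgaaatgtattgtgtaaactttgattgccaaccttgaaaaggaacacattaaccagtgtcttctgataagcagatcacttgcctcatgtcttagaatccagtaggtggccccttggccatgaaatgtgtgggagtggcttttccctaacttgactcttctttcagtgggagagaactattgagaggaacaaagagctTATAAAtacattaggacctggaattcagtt
GSTA4: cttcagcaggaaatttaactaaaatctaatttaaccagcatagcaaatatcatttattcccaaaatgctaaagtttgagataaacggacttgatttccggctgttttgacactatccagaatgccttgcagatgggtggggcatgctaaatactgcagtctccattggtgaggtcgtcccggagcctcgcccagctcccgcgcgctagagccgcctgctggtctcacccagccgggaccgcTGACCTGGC
GSTP1: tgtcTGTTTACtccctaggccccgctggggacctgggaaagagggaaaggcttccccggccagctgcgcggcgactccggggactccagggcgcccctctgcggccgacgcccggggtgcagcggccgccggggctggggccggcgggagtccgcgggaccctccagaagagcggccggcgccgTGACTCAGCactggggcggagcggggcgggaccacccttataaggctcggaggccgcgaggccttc

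The GSTA2 and GSTA1 sequences were the same at 243 of 250 positions (97.2%). Both hold the C/EBP core at -250 to -243 and the TATA box at -30 to -25, counted from the gene start with the base before it as -1. Of 35114 upstream sequences of this length, 9.05% hold the C/EBP core and 6.80% the TATA box. The best alignments of the GSTA2 sequence to those of GSTA3, GSTA5 and GSTA4 had 49.1%, 48.3% and 46.2% identical columns, gaps included.

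Neither motif was found in the sequences of GSTA5 and GSTA3, whose probes were lower in HTE, nor in that of GSTA4, whose probes were near 0. The C/EBP core was also found in GSTK1 (log2 ratio 0.21), at -186 to -179. A TATA box was also found before 1 of the gene starts of MGST1 (log2 ratio 0.16), at -197 to -192. GSTA5 holds a forkhead core at -229 to -223, and GSTA3 a nuclear receptor core at -194 to -189. The match of GSTA4 to the antioxidant response core lies at -9 to -1, and the nuclear receptor core overlaps it. It has 11 CpG pairs and 50.4% G and C, against 1 CpG pair and 40.4% for GSTA2, and the medians over all upstream sequences were 11 and 58%. The antioxidant response core, found in 10.9% of all upstream sequences, occurred once in GSTP1, at -66 to -58, and at 2 positions in GSTO1, and in neither GSTA2 nor GSTA1 within this window. These matches are letters in a window and no measure of binding, and a missing match says only that the letters are not in these 250 bases.

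Beyond the alpha class, the measured members had small ratios, with GSTZ1 as the highest. All 9 measured members were well above background on both arrays. Of them 6 were higher in HTE and 3 lower, with GSTA2 alone at least 2-fold lower and 0 at least 2-fold higher. Over all genes 3.03% were at least 2-fold lower and 5.25% at least 2-fold higher. Since GSTA2 was chosen for its fall, nothing is read from that count. The median log2 ratio of the 9 members was 0.16, and 0.16 again without GSTA2. Over all genes the median was 0, with 45.7% of genes above 0 and 49.0% below. Over the 21000 genes with a signal clear of background in both conditions 49.5% were above 0 and 50.5% below. Of these 21000 genes 4.29% were at least 2-fold higher and 2.96% at least 2-fold lower. The gene lists below are set beside the shares of all genes, which include bounds put at 0. The other 8 members lay between -0.27 and 0.83, a range that held 66.8% of all genes.

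These directions depend on the scaling for several members. Without scaling, where the median of all genes was -0.16, GSTA4, GSTM3 and MGST1 were below 0 (-0.16, -0.01 and -0.01) and 6 of the 9 members were lower in HTE. GSTA4 was also below 0 after normexp correction (-0.03) and with scaling to the median (-0.07). Scaled to the E1A spike-in spots, control RNA that is added before labelling, the median of all genes was -1.33 and all 9 members were below 0, 8 of them at least 2-fold, and any gene given here with a ratio between 0 and 1.33 also turned below 0. GSTA2 was at -3.56 under that scaling and at -2.22 to -2.39 under the others. The gap between GSTA2 and the median of the other 8 members does not depend on how whole arrays are scaled by 1 factor, and was -2.38.

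GSTZ1, also known as maleylacetoacetate isomerase, takes part in the breakdown of tyrosine and phenylalanine and dechlorinates small haloacids. Its signal was 6898 in DMSO and 10875 in HTE. The log2 ratio was 0.83, 1.78-fold higher, and it stayed under the 2-fold limit. Of all genes, 7.47% had a higher ratio. The sign turned in the spike-in scaling alone (-0.51).

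The pi and kappa enzymes had ratios slightly above 0, which turned below 0 with the spike-in scaling (-1.06 for GSTP1 and -1.13 for GSTK1). GSTP1, the main form in many tumours and in tissues outside the liver, also binds and restrains the kinase JNK. Its probe, printed 10 times, gave mean signals of 52217 and 56180 and a log2 ratio of 0.28 ± 0.06 (SD over 10 spots, from 0.12 to 0.33). GSTK1 gave 42288 and 43346 on the brighter probe, a log2 ratio of 0.21, and 25004 and 26967 on the other, a ratio of 0.28.

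MGST1, which lies in the outer mitochondrial membrane and the endoplasmic reticulum and also reduces lipid hydroperoxides, gave 66889 in DMSO and 66307 in HTE, a log2 ratio of 0.16. The raw signals were slightly lower in HTE, and the scaled ratio is above 0 because the 75th percentile was 3570 in HTE and 4020 in DMSO. Much the same held for GSTM3, a mu class enzyme, with mean signals of 56072 and 55502 and a log2 ratio of 0.16 ± 0.06 (SD over 10 spots, from 0.08 to 0.25). Both lie within the scanner software's error of 0.20.

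GSTM4 and GSTO1 were the members besides GSTA2 with ratios below 0. GSTM4, a mu class enzyme that can make the lipid mediator leukotriene C4, gave 1895 and 1395, a log2 ratio of -0.27. GSTO1, which reduces dehydroascorbate and methylated arsenic, gave 51160 and 42604, a log2 ratio of -0.09. Both stayed below 0 under the 11 alternatives in processing, with GSTO1 closest to 0 at -0.04. Each has 1 probe with 1 spot that cleared background on both arrays. The filters on dim or outlier spots and the mean over probes therefore could not change these values. The ratio of GSTO1 lies within the scanner software's error of 0.20.

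**Figure D3:**
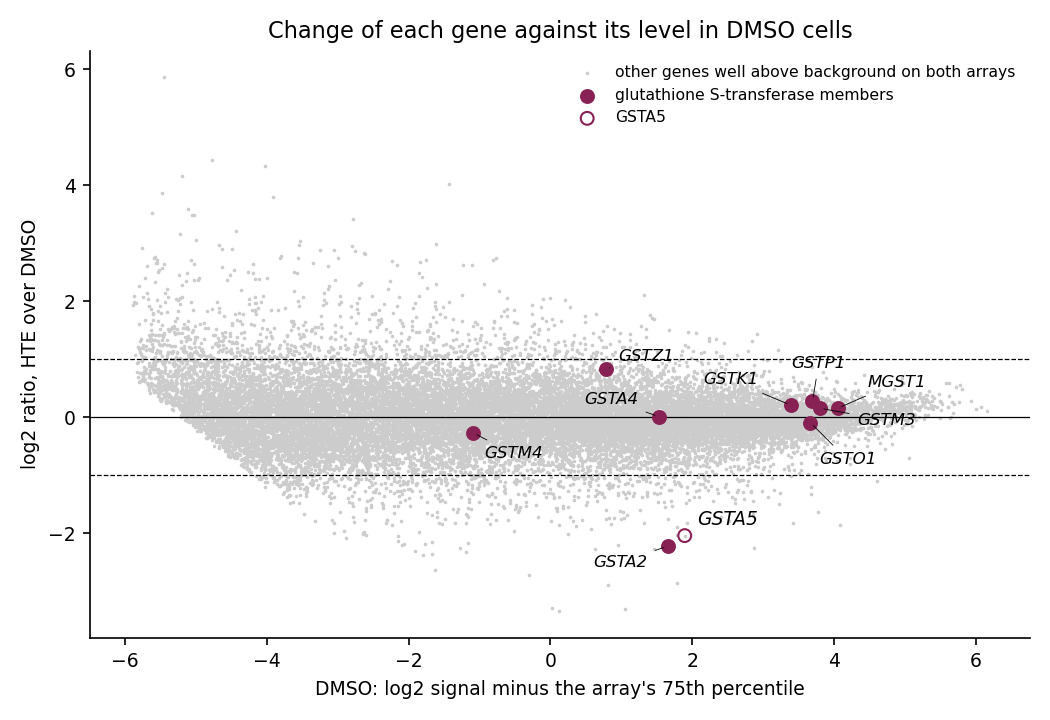
Log2 ratio of HTE over DMSO (vertical axis) against the scaled log2 signal in DMSO (horizontal axis), 1 array each, for the genes well above background on both arrays (grey), the 9 measured members (filled) and GSTA5 (open), with dashed lines at 2-fold. GSTA2 and GSTA5 lie near -2, below nearly all genes, and the other 8 members lie between the dashed lines.

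**Figure D4:**
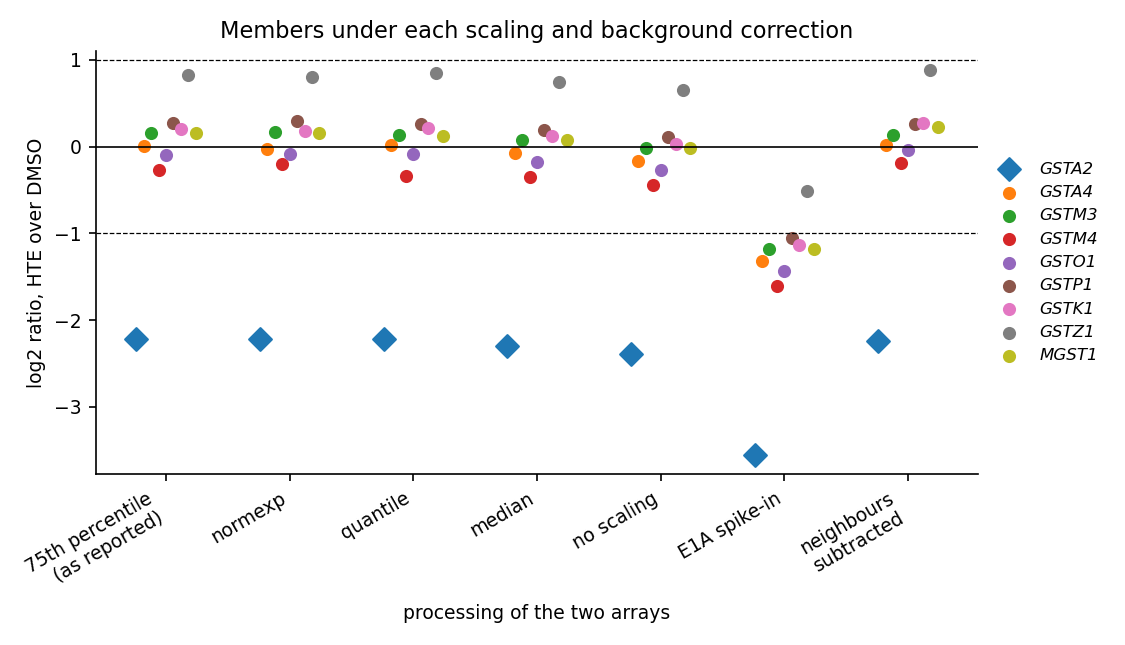
Log2 ratio of HTE over DMSO of the 9 measured members (GSTA2 as a diamond, points set slightly apart sideways) under 7 ways of processing the 2 arrays, with dashed lines at 2-fold. GSTA2 is the lowest member in each of them, between -3.56 and -2.22, and the spike-in scaling moves all members down together.

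The remaining glutathione S-transferases and their relatives were taken as a list of 16 genes, of which 14 were measured. Of these 5 were higher and 9 lower (45.7% and 49.0% of all genes), 1 at least 2-fold higher and 3 at least 2-fold lower (5.25% and 3.03% of all genes). The median log2 ratio was -0.14 (from -0.05 to -0.31 under the alternatives other than the spike-in scaling, at -1.48). The 3 lower genes were GSTA5, GSTA3 and ALOX5AP. ALOX5AP, the protein that presents arachidonic acid to 5-lipoxygenase, gave 491 in DMSO and 23.1 in HTE, where it was not well above background, so it was at least 4.61-fold lower. LTC4S, which joins glutathione to leukotriene A4, was well above background in HTE only (39.3 and 184) and was at least 3.11-fold higher, with a log2 bound of 1.64 that was 1.15 after normexp background correction. GSTO2, an omega enzyme like GSTO1, was at -0.67 (594 and 331), and GSTCD, a little studied relative, at -0.64 ± 0.18 (SD over 9 spots). After normexp background correction they were at -0.44 and -0.42.

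The mu, theta and other microsomal genes of that list had smaller ratios. GSTM1 was at -0.01 ± 0.05 (SD over 10 spots), GSTM2 at -0.19 on its brighter probe and 0.04 on the other, and GSTM5 at -0.32. GSTT1 was at 0.05, GSTT2 at 0.20 and its near copy GSTT2B at 0.28. MGST2 was at -0.09 ± 0.06 (SD over 8 spots) and MGST3 at 0.23 and 0.28 on its 2 probes. HPGDS and PTGES, both synthases of prostaglandins, were not well above background on either array. The mu genes are alike in sequence, as are GSTT2 and GSTT2B, and uptake of one transcript by the probe of another was not tested.

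The genes that supply glutathione and its NADPH were mostly higher in HTE, except with the spike-in scaling, where 0 were. Of 12 genes, all measured, 8 were higher and 4 lower (45.7% and 49.0% of all genes), 3 at least 2-fold higher and 0 at least 2-fold lower (5.25% and 3.03% of all genes), with a median log2 ratio of 0.35, which was 0.18 without scaling and -0.98 with the spike-in scaling. CTH, which makes cysteine from cystathionine, was 2.51-fold higher (2830 and 6312, log2 ratio 1.33). SLC3A2 and SLC7A11, the chains of the cystine importer, were at 1.11 (9839 and 18897) and 0.99 (16931 and 29899). ME1, the cytosolic malic enzyme that makes NADPH, was at 1.07 from low signals (186 and 346). All 4 of these ratios were below 0 in the spike-in scaling (from -0.34 to -0.01).

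The enzymes of glutathione synthesis itself differed less. GCLC, the catalytic chain of the rate-limiting glutamate-cysteine ligase, was at 0.30, its modifier chain GCLM at -0.23, and GSS, the synthetase of the last step, at -0.19, though at 0.09 after normexp background correction. GSR, which reduces oxidised glutathione, was at 0.04.

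Of 16 genes that break down glutathione or its conjugates, 13 were measured, 7 higher and 6 lower (45.7% and 49.0% of all genes). Their median was 0.09. Without scaling 5 were higher and 8 lower, with a median of -0.08, and the median was -1.25 with the spike-in scaling. CHAC1, an enzyme that cleaves glutathione within the cell, was 4.98-fold higher (633 and 2799, log2 ratio 2.32), and its ratio stayed above 0 in the spike-in scaling (0.98). GGT7, a gamma-glutamyltransferase relative, was at 1.09 on its brighter probe and 0.31 on the other, and at -0.24 in the spike-in scaling. GGT6, of the same family, was at -1.11 (314 and 129), and at -0.64 after normexp background correction. DPEP1, a dipeptidase that cleaves cysteinylglycine, was at -0.81.

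The other users of glutathione, peroxidases, glutaredoxins and glyoxalases among them, included 0 genes past 2-fold in either direction (5.25% of all genes higher and 3.03% lower). Of 18 genes 12 were higher and 6 lower (45.7% and 49.0% of all genes), with a median of 0.11. Without scaling 6 were higher and 12 lower, with a median of -0.06, and the median was -1.22 with the spike-in scaling. The ratios ran from -0.43 for GPX3, the plasma peroxidase, to 0.47 for GPX8, a peroxidase of the endoplasmic reticulum (0.14 on its other probe). GPX2, the gastrointestinal peroxidase, had a signal of 136214 in DMSO and 124963 in HTE.

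Of 8 genes for the export of conjugates, 5 were higher and 3 lower (45.7% and 49.0% of all genes). None, 0 of 8, was past 2-fold (5.25% of all genes higher and 3.03% lower). The median was 0.25 (0.08 without scaling, -1.09 with the spike-in scaling), and without scaling 4 were higher and 4 lower. ABCC2, the canalicular pump for glutathione conjugates, was at 0.58 (28781 and 38222). ABCG2, another pump of the same membrane, was at -0.62 (380 and 220), and at -0.40 after normexp background correction. ABCC5 was at -0.29 on its brightest probe and at 0.65 on both others, so no direction is given for it.

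Other detoxification enzymes had ratios on both sides of 0. Of 19 genes 16 were measured, 11 higher and 5 lower (45.7% and 49.0% of all genes), with a median of 0.08. Without scaling 6 were higher and 10 lower, with a median of -0.09, and the median was -1.25 with the spike-in scaling. NQO1, a quinone reductase much used as a readout of the antioxidant response, was at 0.02 (7740 and 6993). AKR1C1, a reductase of steroids and aldehydes, was at 0.61 (91173 and 123849) on its brighter probe and 0.28 on the other, and shares much of its sequence with its paralogs. NAT2, an arylamine acetyltransferase, was well above background in HTE only (81.5 and 253) and was at least 3.49-fold higher, but its log2 bound of 1.80 was 1.11 after normexp background correction. AKR1B10, a related reductase, was at 0.50 and 0.51 on its 2 probes. ALDH3A1, an aldehyde dehydrogenase, was at 0.21 on its brighter probe and 1.33 on the other. TPMT, a methyltransferase of thiopurines, had the lowest ratio (-0.29).

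**Figure D5:**
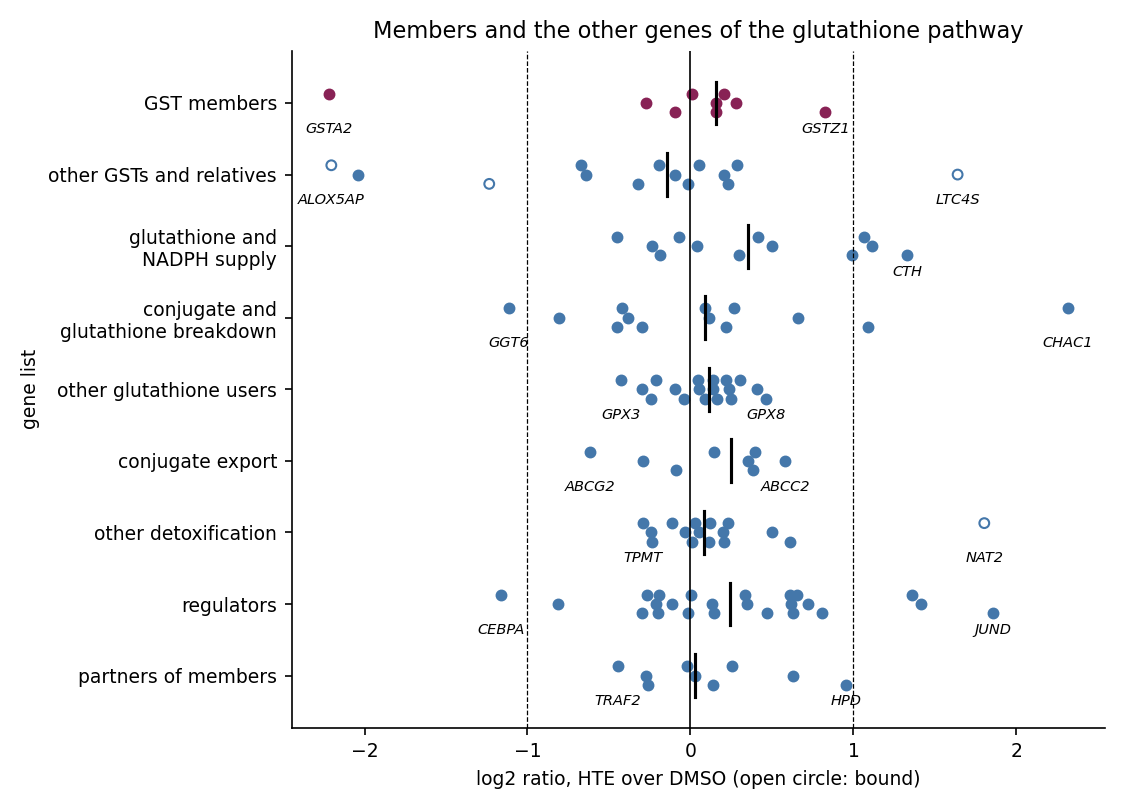
Log2 ratio of HTE over DMSO (horizontal axis, 1 array each) of the measured members and of the genes of 8 related lists (1 line per list), 1 circle per gene, open for a bound, with a black bar at the median of each list, dashed lines at 2-fold and the lowest and highest gene of a list named in most lists. The members other than GSTA2 and GSTZ1 lie between -0.27 and 0.28, Among genes measured on both arrays CHAC1 has the highest ratio and GSTA2 the lowest, and bounds have no place in that order.

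Factors known to control glutathione S-transferase genes were taken as a list of 24, all measured. Of these 15 were higher and 9 lower (45.7% and 49.0% of all genes), 3 at least 2-fold higher and 1 at least 2-fold lower (5.25% and 3.03% of all genes). The median was 0.24 (0.07 without scaling, -1.10 with the spike-in scaling). CEBPA, the C/EBP factor of mature hepatocytes, was 2.24-fold lower (27382 and 10849, log2 ratio -1.16), and FOXA1, a forkhead factor of the liver, was at -0.81 (15587 and 7902). CEBPB, of the C/EBP family too, was at 0.65 (38298 and 53497). HNF4A, a nuclear receptor of hepatocytes, was at 0.13 (883 and 860).

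JUND, FOS and MAFF, factors of the AP-1 and small Maf families, were at 1.86 (263 and 847), 1.41 (87.0 and 206) and 1.36 (2547 and 5813). In the spike-in scaling JUND was at 0.52, while FOS and MAFF were next to 0 (0.08 and 0.03). FOS was dim in DMSO, where the lowest signal well above background was 66.6. NFE2L2, which encodes the antioxidant response factor NRF2, was at -0.30, and its inhibitor KEAP1 at -0.20. AHR, the receptor for dioxins and many plant flavonoids, was at 0.81 (9043 and 14058) and NR1I2, the pregnane X receptor, at 0.63. These are levels of transcripts, and no activity of a factor was measured.

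Genes that work with single members formed a list of 10. Of these 9 were measured, 5 higher and 4 lower (45.7% and 49.0% of all genes), 0 past 2-fold (5.25% of all genes higher and 3.03% lower). The median was 0.03, which was -0.05 with scaling to the median, -0.14 without scaling and -1.31 with the spike-in scaling. Without scaling 3 were higher and 6 lower. Along the tyrosine pathway of GSTZ1, HPD, the dioxygenase ahead of it, was at 0.96 (15087 and 26001) and at -0.38 in the spike-in scaling. HGD, the next enzyme, was at -0.02 and FAH, which follows GSTZ1, at 0.03. TAT, which opens the pathway, was at 0.63 from low signals (184 and 252). TRAF2, an adaptor that binds GSTP1, was at -0.45.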

How the data were processed

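The authors deposited the Agilent Feature Extraction output of 1 DMSO and 1 HTE array of HepG2 cells. Each spot's processed signal was used, a fluorescence intensity, which the authors' software had background-subtracted and detrended. They were not scaled between arrays. The labels name version 10.7 of the software and the file headers 11.5.1.1. The labels give the dose as 200 μg/mL HTE, and the name of the deposited HTE table holds 300. The study's methods state a 2-fold limit and no scaling.

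Of 58717 spots per array that are not controls, 60.6% (DMSO) and 56.6% (HTE) were well above background, 0 were saturated, and 440 and 459 were outliers, which were left out. The 75th percentile of the log2 signal was subtracted on each array, with the mean taken over spots that repeat a probe. Probes stayed in if a share of 0.5 or more of their spots cleared background on either array. For a probe dim on 1 array the ratio is a bound, its bright value set against the dimmest spot that cleared background on the other array (or its own signal, if larger), and bounds under 1-fold became 0. The lowest such signals were 66.6 (DMSO) and 94.6 (HTE). Probes were named by RefSeq accession through the gene table of GRCh38.p14 (28174 of 50599). The array design names another build, so no probe positions are given, and the gene order and upstream regions are those of GRCh38.p14. For genes with several probes the brightest was used. Upstream sequences are RefSeq's. All 9 measured members had one there, and so had GSTA1.

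Log2 ratios had a median SD of 0.05 among replicate spots (689 probes with at least 5) and 0.16 among probes of a gene (3759 genes). A log2 ratio was taken as moved when a processing choice changed it by more than the first. A count was taken as moved when it changed by a factor of more than 1.5, or to 0. The alternatives were normexp (limma, offset 50), quantile normalization, median, no and E1A spike-in scaling (280 spots), other filters on dim or outlier spots, the mean over probes, the other probe of a gene, subtraction of the median ratio of spots within 5 rows and columns, and limits of 1.5-fold and 3-fold. Leaving out GSTA2 was added after seeing the data. The steps were tested on the DMSO array set against a copy of itself with known shifts and random noise added. The background calls were the same on both sides, so the handling of bounds was not tested. The members and gene lists were chosen with earlier results of these data known. The text names all members with every probe, list genes with at least each list's largest rise and fall and those past 2-fold, the 2 genes ranked before and after GSTA2, and the 5 nearest to it. R 4.3.3, limma 3.58.1, Python 3.11.15, numpy 2.4.6, pandas 2.3.3, matplotlib 3.10.9 and biopython 1.88 were used. Values of some listed genes are not reported here.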

Additional observations from a re-analysis of the deposited data

How the results depend on the processing

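No paired analysis was possible because each condition has 1 array, and no replicate could be left out. GSTA2 was below 0 under all 11 alternatives and moved by more than the spread between replicate spots with scaling to the median (-2.30), no scaling (-2.39) and scaling to the E1A spike-in (-3.56). GSTA2 has 1 probe with 1 spot that cleared background on both arrays. The filters on dim or outlier spots and the mean over probes therefore could not change its value. The median of the members moved to 0.076, -0.015 and -1.18 under the same 3 and was 0.16 without GSTA2. The number of members lower in HTE went from 3 to 6 without scaling and to 9 with the spike-in, the number higher from 6 to 3 and 0, and the number at least 2-fold lower from 1 to 8 with the spike-in. Without the filter on dim probes the median of all genes was 0.20, so that 3 members lay above it in place of 6. The count of genes at least 2-fold higher was 1248, and 825 with normexp, 121 with the spike-in, 2297 without the filter, 2953 at 1.5-fold and 422 at 3-fold. The count at least 2-fold lower was 720, and 468 with normexp, 1209 without scaling, 17971 with the spike-in, 1270 without the filter, 1321 with measured values for dim probes, 2504 at 1.5-fold and 129 at 3-fold. The share of higher genes among those past 2-fold was 63.4%, and 54.5% scaled to the median, 42.2% without scaling, 0.669% with the spike-in and 50.4% with measured values for dim probes. The cause of these shifts was not tested. Signals near background, as for GSTA3, ALOX5AP and LTC4S, give bounds only.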
